A study of Mus musculus with 47 samples.

Results

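Imprinted genes are the small class of mammalian genes that are transcribed mainly from the copy inherited from one parent. The set described here held 38 protein-coding mouse genes fixed by name, all 38 of them present among the 20456 genes of the count table. Total RNA per gene was measured in homozygous Daxx Y130A and Daxx S226A embryos on a C57BL/6 background and in their wild-type littermates at embryonic day 18.5, in liver, lung and brain, in 47 libraries from 17 embryos. The Y130A substitution abolishes binding of the histone chaperone Daxx to the chromatin remodeller Atrx, and S226A abolishes its binding to the histone variant H3.3. The authors allow that the loss of Atrx binding may be incomplete, since some replicates of their binding assay showed a faint ATRX band. Each of the 12 groups held 4 libraries, apart from 3 for wild-type lung in the Y130A line, and the mutants and wild types of each line came from 4 litters that the other line did not share. The alleles were made by editing C57BL/6N zygotes and crossing to C57BL/6J, so both parental genomes were of the same strain background, the data hold no allele information, and a change in total RNA cannot be assigned to the maternal or the paternal copy.

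Imprinted genes lie in clusters, each governed by an imprinting control region that carries DNA methylation on 1 parental copy. After fertilisation that methylation is protected by the zinc finger protein ZFP57 and its corepressor TRIM28, and Daxx with Atrx deposits H3.3 at silent repeats and at some imprinted control regions. Many members act on fetal growth, with paternally expressed genes tending to promote it and maternally expressed genes to restrain it, and many are also expressed in the developing brain. From textbook knowledge, 20 of the 38 were assigned to the paternal copy, 5 to the maternal copy, and 13 to a copy that depends on tissue. They lie in 16 domains on 10 chromosomes, 16 of them on chromosome 7 and 7 on chromosome 6. Imprinted noncoding RNAs such as H19, Meg3 and Airn were not analysed here.

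All 38 members passed the filter on low counts, which kept 16892 genes. Libraries of the S226A litters held between 15722147 and 26190403 counted reads, and those of the Y130A litters between 36351738 and 54885020. Summed hepatocyte markers reached 130610 to 163040 CPM (counts scaled to a common library size) in livers, lung epithelial markers 8628 to 13814 CPM in lungs and neuronal markers 4770 to 5642 CPM in brains, as labelled. In 2 of 16 livers, wild-type replicate 2 of the S226A litters and Y130A replicate 1, summed squamous epithelial markers reached 829.85 and 514.56 CPM, against at most 6.60 CPM in the other livers. A value in bulk tissue cannot separate fewer cells of a type from less RNA per cell. Whether reads were counted by strand is not given in the sources used here, and 15 members share exon bases with another annotated gene. The overlap was widest for Igf2, of whose exon bases 35.5% belonged to no other gene, followed by Snrpn with 65.9% and Cdkn1c with 69.3%.

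The first question was where the imprinted genes are expressed in wild-type embryos. By mean CPM over 8 livers, 7 lungs and 8 brains, 16 members were highest in brain, 11 in liver and 11 in lung. Of the 20 paternally expressed members 11 were highest in brain, and of the 5 maternally expressed members 4 were highest in liver and none in brain. The share of all genes highest in each tissue was not counted, so these splits have no background beside them. The paternal brain count includes Snrpn, Ndn, Magel2 and Mkrn3, which lie in the same domain. Between liver and lung, 23 of 38 members differed with an adjusted p below 0.05 and more than a 2-fold difference, against 46.5% of all genes tested. Between liver and brain it was 28 of 38 against 59% of all genes, and between lung and brain 26 of 38 against 51.2%. The median log2 difference of the members was -0.50 for liver against lung, -0.39 for liver against brain and 0.14 for lung against brain, beside -0.08, -0.08 and -0.02 over all genes.

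**Figure D1:**
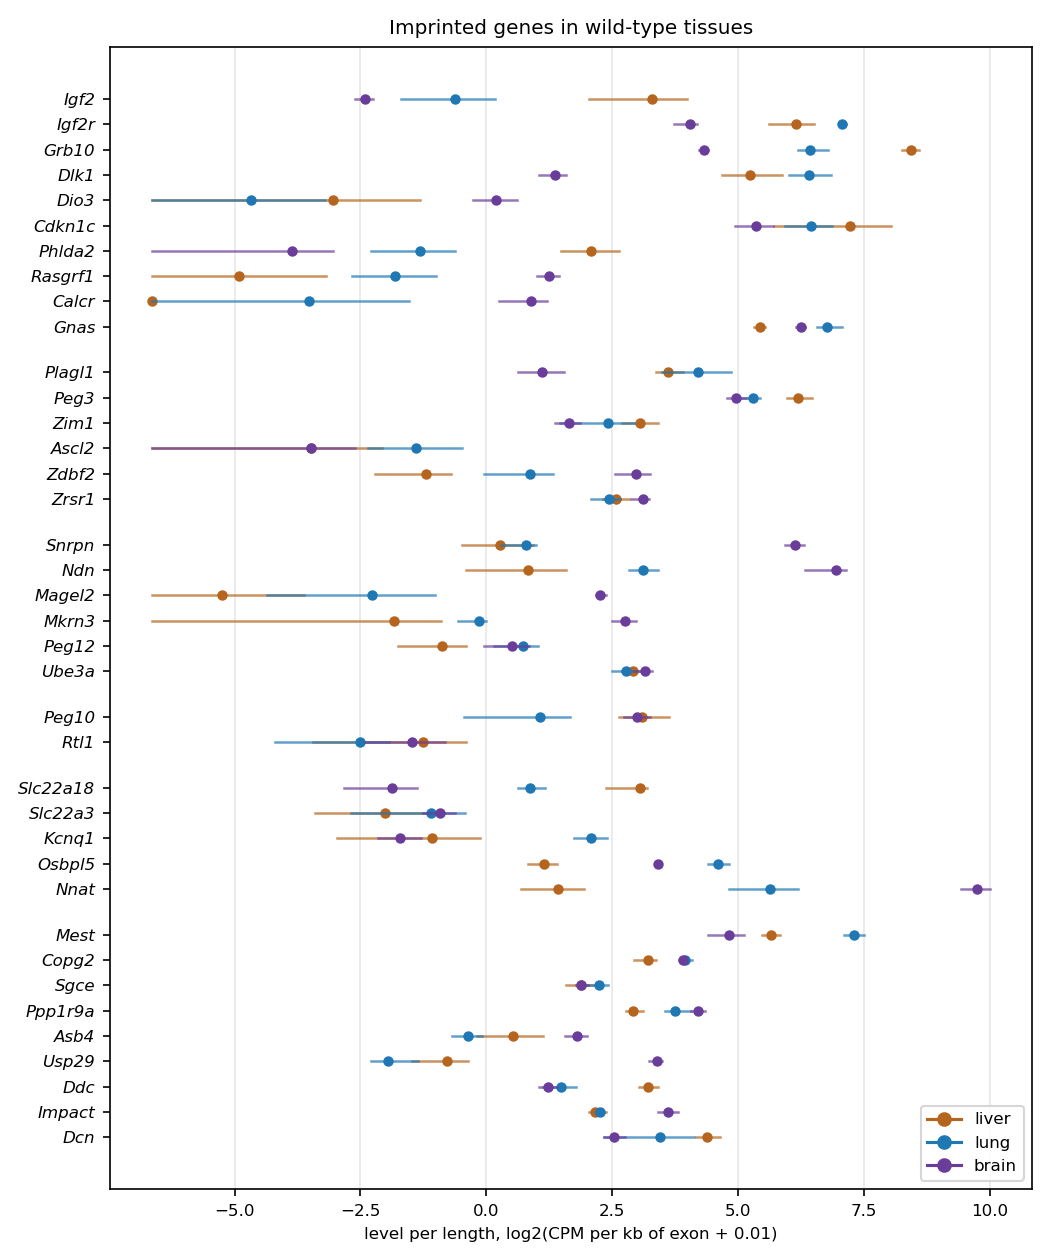
Level of each of the 38 imprinted genes in wild-type liver, lung and brain, as log2 of CPM per kb of exon plus 0.01; points are means over 8 livers, 7 lungs and 8 brains, lines run from the lowest to the highest library, and gaps separate the role groups. Grb10 stands highest in liver, Mest and Igf2r in lung, and Nnat in brain.

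Per kb of exon, the liver was led by Grb10, the adaptor that dampens signalling from the insulin and IGF receptors, at 347 ± 31.5 CPM per kb (SD, n = 8). Its libraries ran from 304 to 389 CPM per kb and did not overlap those of any other member per kb of exon. Next came Cdkn1c, the cyclin-dependent kinase inhibitor p57, at 149 ± 82.8, the zinc finger gene Peg3 at 73.2 ± 8.46, the IGF2-clearing receptor Igf2r at 70.8 ± 14.5 and the hydrolase-like gene Mest at 50.3 ± 4.13 CPM per kb. Neighbours in this order from Cdkn1c downward overlapped in range. In lung the order was Mest at 158 ± 13.05, Igf2r at 135 ± 6.24, Gnas at 109 ± 12.9, Cdkn1c at 87.6 ± 19.4 and Grb10 at 86.2 ± 13.3 CPM per kb (SD, n = 7), and each overlapped the next. In brain Nnat, a small membrane proteolipid of developing neurons, stood far above the rest at 860 ± 137 CPM per kb, followed by Ndn at 123 ± 18.2, Gnas at 76.7 ± 3.29, Snrpn at 69.7 ± 6.06 and Cdkn1c at 40.9 ± 8.79 CPM per kb (SD, n = 8). Nnat and Ndn each lay above the next gene without overlap, as did Snrpn, while Gnas overlapped Snrpn. Another scale divided the same counted reads by only the exon bases free of other genes. No reads were counted over those bases alone. On it Snrpn at 106 stood above Gnas at 98.3 CPM per kb in brain. In lung Gnas at 139 stood above Igf2r at 135 CPM per kb, so the order of these pairs is uncertain. On that scale Gnas and Snrpn also overlapped Ndn in brain, and Cdkn1c overlapped Grb10 in liver, while Mest lay above the next gene in lung without overlap. Gnas, Cdkn1c and Mest share no exon bases with a gene of their own strand. If reads were counted by strand, that scale would place them too high.

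Among the growth factors, receptors and signalling genes, the fetal growth factor gene Igf2 ran from 23.4 through a median of 52.8 to 91.1 CPM in liver, from 1.71 to 6.41 CPM in lung and from 0.883 to 1.15 CPM in brain. Liver exceeded lung by 3.87 ± 0.23 (SE) and brain by 5.65 ± 0.24 on the log2 scale, with edgeR adjusted p of 3.4e-19 and 1.6e-24. Since only 35.5% of its exon bases are free of other genes, its level against other members is uncertain. With each member's reads divided by such bases alone, Igf2 ranked 8 of the 38 in liver in place of 10. Its receptor Igf2r showed another order, highest in lung with 1192 to 1320 CPM, then liver with 454 to 848 and brain with 124 to 170 CPM. Grb10 fell in steps from liver with a median of 3155 CPM through lung with 810.65 to brain with 185 CPM. Cdkn1c spanned 108 to 535 CPM in liver and 62.2 to 105 CPM in brain, and Phlda2, which restrains placental growth, was at 4.70 CPM in liver and under 0.5 CPM on average in lung and brain. Dlk1, a transmembrane protein that holds progenitors undifferentiated, was highest in lung with a median of 425 CPM. Rasgrf1, a Ras exchange factor, the calcitonin receptor gene Calcr and Dio3, which inactivates thyroid hormone, were brain genes with means of 26.2, 7.20 and 2.29 CPM there. Calcr had no read in any of the 8 wild-type livers. Gnas, encoding the stimulatory G protein subunit, was broadly expressed, with means of 482, 1215 and 858 CPM in liver, lung and brain.

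Among the role groups, the Snrpn domain, the mouse counterpart of the Prader-Willi and Angelman region, was the clearest brain group, though Peg12 was highest in lung. Of its 6 members, 5 were lower in liver than in brain by the same rule, beside 31% of all genes, with a median difference of -5.25 on the log2 scale, and only the ubiquitin ligase gene Ube3a did not pass, at means of 155 and 183 CPM. Snrpn, a spliceosomal Sm protein gene, ran from 1.54 to 4.07 CPM in liver, from 2.61 to 4.27 in lung and from 133 to 172 CPM in brain. Ndn, encoding the MAGE family protein necdin, ran from 2.76 to 10.99 CPM in liver, from 26.5 to 39.5 in lung and from 299 to 520 in brain. The brain ranges of both lay above every liver and lung library. The MAGE gene Magel2 and the ring finger gene Mkrn3 averaged 22.3 and 17.2 CPM in brain and less than 1 CPM in liver. Peg12 stayed between 0.758 and 5.37 CPM in every wild-type library, with means of 4.33 CPM in lung and 3.72 in brain. Between lung and brain, 4 of the 6 members were lower in lung by the same rule, beside 4067 of the 16892 genes tested.

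Peg3 and the ubiquitin protease gene Usp29 start from a shared region in opposite directions, and both were higher in liver than in lung, but brain was the lowest tissue for Peg3 and the highest for Usp29. Peg3 was at 835 to 1189 CPM in liver, 453 to 581 in lung and 365 to 474 in brain, so that liver lay above brain without overlap, by 1.23 ± 0.06 on the log2 scale. Usp29 was at 6.32 to 13.9 CPM in liver, 3.52 to 6.93 in lung and 169 to 203 CPM in brain, so that liver lay below brain by 4.19 ± 0.14. This pair was singled out after its values were seen. The 2 promoter windows, each 300 bases across the gene start in the RefSeq table for GRCm38.p6, share 263 bases, chr7:6730370-6730632. Peg3 is read on the minus strand from chr7:6730370-6730669 and Usp29 on the plus strand from chr7:6730333-6730632, and they are shown because they carry this divergent pair. Each line runs 5′ to 3′ in the direction of its gene, and no base is in capitals since neither window holds the ZFP57 hexamer TGCCGC on either strand.
Peg3: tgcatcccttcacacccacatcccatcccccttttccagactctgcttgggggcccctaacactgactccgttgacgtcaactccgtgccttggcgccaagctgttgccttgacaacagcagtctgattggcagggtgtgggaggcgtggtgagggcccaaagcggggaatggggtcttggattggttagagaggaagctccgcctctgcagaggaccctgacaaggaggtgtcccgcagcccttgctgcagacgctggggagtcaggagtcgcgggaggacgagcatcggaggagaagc
Usp29: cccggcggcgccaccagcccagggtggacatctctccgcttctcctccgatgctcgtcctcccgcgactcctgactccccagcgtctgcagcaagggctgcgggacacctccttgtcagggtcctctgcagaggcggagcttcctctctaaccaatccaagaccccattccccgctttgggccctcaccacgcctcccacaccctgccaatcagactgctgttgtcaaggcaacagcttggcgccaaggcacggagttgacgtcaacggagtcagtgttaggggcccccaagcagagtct

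Of the other transcription factor and RNA-binding genes, the growth-restraining zinc finger gene Plagl1 was highest in lung, with a mean of 143 CPM, and Zim1, another zinc finger gene beside Peg3, was highest in liver at 66.7 CPM. Zdbf2 was a brain gene, at 99.98 CPM against 5.40 in liver, and Zrsr1, related to the splicing factor U2AF, averaged 24.2 to 39.0 CPM in the 3 tissues. The trophoblast factor gene Ascl2 stayed under 1 CPM on average in every tissue. The retrotransposon-derived gene Peg10, needed in the placenta, was at 56.7 CPM in liver and 53.3 in brain but 13.8 in lung, and Rtl1, of similar origin, averaged under 3 CPM in all. The transporter gene Slc22a18 was highest in liver at 14.0 CPM and the potassium channel gene Kcnq1 in lung at 17.3 CPM, while the lipid transfer gene Osbpl5 reached 119 CPM in lung and the cation transporter gene Slc22a3 averaged under 3 CPM. Among the remaining members, the aromatic amino acid decarboxylase gene Ddc and the matrix proteoglycan gene Dcn were highest in liver at 41.4 and 123 CPM. Impact, a regulator of translation, the neurabin gene Ppp1r9a and the ankyrin repeat gene Asb4 were highest in brain at 62.7, 269 and 13.7 CPM. The coat protein gene Copg2 and the sarcoglycan gene Sgce differed less than 2-fold between any 2 tissues.

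The next question was whether either Daxx substitution changed the RNA of imprinted genes against wild-type littermates. In S226A liver 5 of 38 members were called, that is had an adjusted p below 0.05 in edgeR's quasi-likelihood test over all genes: Copg2 was higher, and Grb10, Ppp1r9a, Ndn and Snrpn were lower. The share called, 13.2%, stood beside 11.7% of all 16892 genes, so S226A liver gave no count of members that stands out from the background. The median log2 fold change was -0.05 over the members and -0.01 over all genes. Of the members not called, Slc22a18 was higher without overlap (log2 fold change 0.46, edgeR adjusted p = 0.11), and Igf2, Peg12 and Ddc brought the members at an unadjusted p below 0.05 to 9 of 38, beside 24.7% of all genes, at -0.55, -0.76 and 0.20 on the log2 scale. No member was called in the other 5 comparisons.

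**Figure D2:**
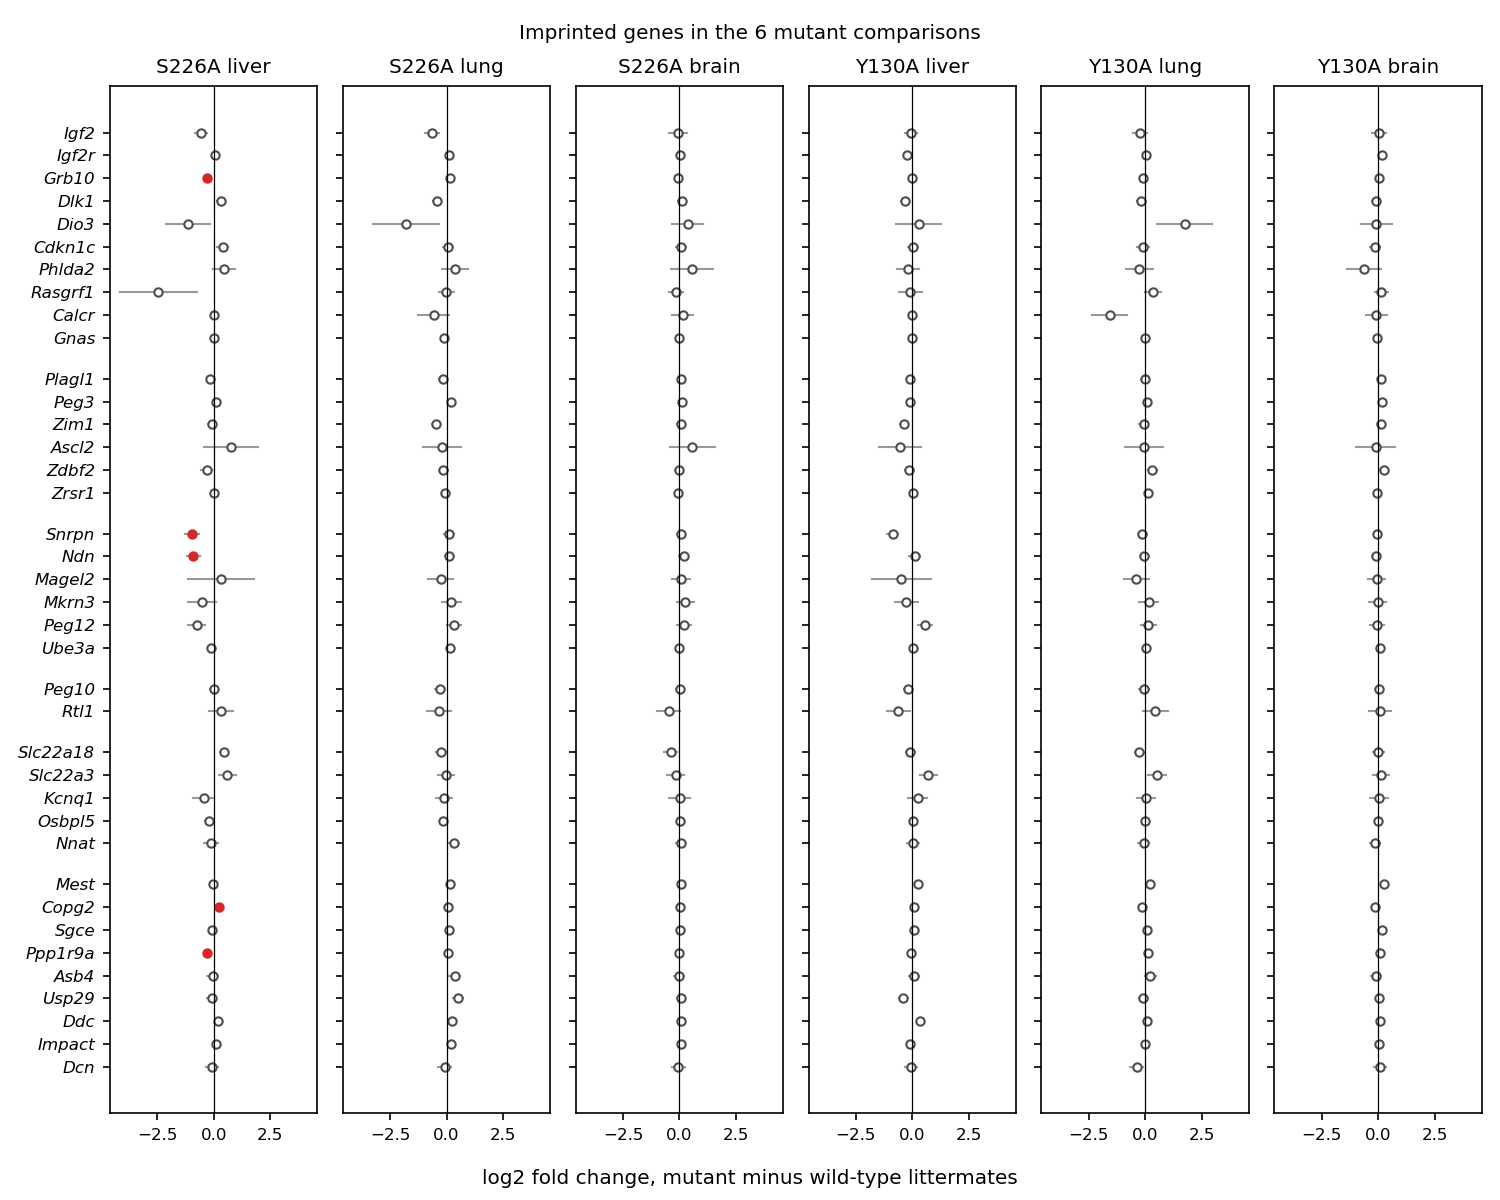
Log2 fold change of each imprinted gene, mutant minus wild-type littermates, in the 6 comparisons; lines are ± 1 SE from edgeR and filled red points had an adjusted p below 0.05. The 5 red points are all in S226A liver, and the widest lines belong to genes with few reads.

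Grb10, the most abundant member in liver, was at 2919, 2912, 2764 and 3012 CPM in the wild-type livers of the S226A litters and at 2279, 2148, 2474 and 2656 CPM in S226A livers. All 4 mutants lay below all 4 wild types. It fell by 17.7%, a log2 fold change of -0.28 ± 0.09 (SE) with an edgeR adjusted p of 0.025. That Grb10 was lower in 4 of 4 litters follows from the lack of overlap. In Y130A liver it was at 3397, 3406, 2972 and 3528 CPM beside 3534, 3349, 3446 and 3298 CPM in wild types, a log2 fold change of -0.03, and in S226A lung it was higher in 4 of 4 litters, at 0.16 (edgeR adjusted p = 0.35). Ppp1r9a was at 121, 109, 109 and 110.02 CPM in wild types and at 105, 85.6, 82.8 and 95.0 CPM in S226A livers, again with no overlap. It fell by 18.2%, or -0.29 ± 0.08 on the log2 scale, with an edgeR adjusted p of 0.010, the lowest of any member in the 6 mutant comparisons. In Y130A liver its log2 fold change was -0.05. Copg2 was at 47.9, 49.9, 39.3 and 51.7 CPM in wild types and at 55.6, 56.9, 56.2 and 56.0 CPM in S226A livers. The mutants lay above the wild types and closer together, with a log2 fold change of 0.25 ± 0.08 and an edgeR adjusted p of 0.046. With DESeq2's size factors in edgeR or with no filter on low counts that adjusted p was 0.053 and 0.062.

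Ndn and Snrpn, the brain genes, were called in liver at their lowest levels. Ndn was at 10.99, 7.43, 7.47 and 2.76 CPM in wild types and at 2.63, 5.13, 5.01 and 2.26 CPM in S226A livers. The ranges overlapped through wild-type replicate 4, but Ndn was lower in 4 of 4 litters, by 0.90 ± 0.27 on the log2 scale (edgeR adjusted p = 0.024). In S226A lung and S226A brain Ndn was higher than the wild type in 4 of 4 litters, at log2 fold changes of 0.13 and 0.18 that did not pass the test (edgeR adjusted p = 0.83 and 1.0). The brain value includes wild-type replicate 4 at 298.56 CPM, where the other wild types of its group ran from 448 to 464 CPM. Snrpn was counted with 25, 41, 40 and 34 reads in wild types and with 7, 50, 15 and 9 reads in S226A livers. That came to 1.54, 2.69, 2.87 and 2.08 CPM against 0.461, 2.31, 0.928 and 0.597 CPM. The ranges overlapped through S226A replicate 2, and Snrpn fell by 0.97 ± 0.30 on the log2 scale (edgeR adjusted p = 0.029), lower in 4 of 4 litters. Without S226A replicate 2 its log2 fold change was -1.77 (edgeR adjusted p = 0.00011), but 5 of the 8 fits that each left out 1 liver lost the call. The weakest was -0.74, without S226A replicate 1 (edgeR adjusted p = 0.12). In Y130A liver Snrpn was at 2.10, 1.59, 1.42 and 1.01 CPM beside 2.44, 2.74, 4.07 and 2.15 CPM in wild types, with no overlap and a log2 fold change of -0.88 ± 0.23 that missed the threshold at an edgeR adjusted p of 0.081. Without Y130A replicate 1 or both livers that held squamous transcripts, its log2 fold change in Y130A liver was -1.08 with edgeR adjusted p of 0.043 and 0.041. Leaving out any other single liver of that line did not call it. Omitting both livers with squamous transcripts took the edgeR adjusted p in S226A liver to 0.074 for Snrpn and 0.051 for Ndn, at log2 fold changes of -0.88 for both. Gm38393, an annotated gene on the same strand that shares Snrpn's exons, had log2 fold changes of 0.30 in S226A liver and 0.23 in Y130A liver (edgeR adjusted p = 0.68 and 0.91). The part of shared reads in the Snrpn value was not tested.

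**Figure D3:**
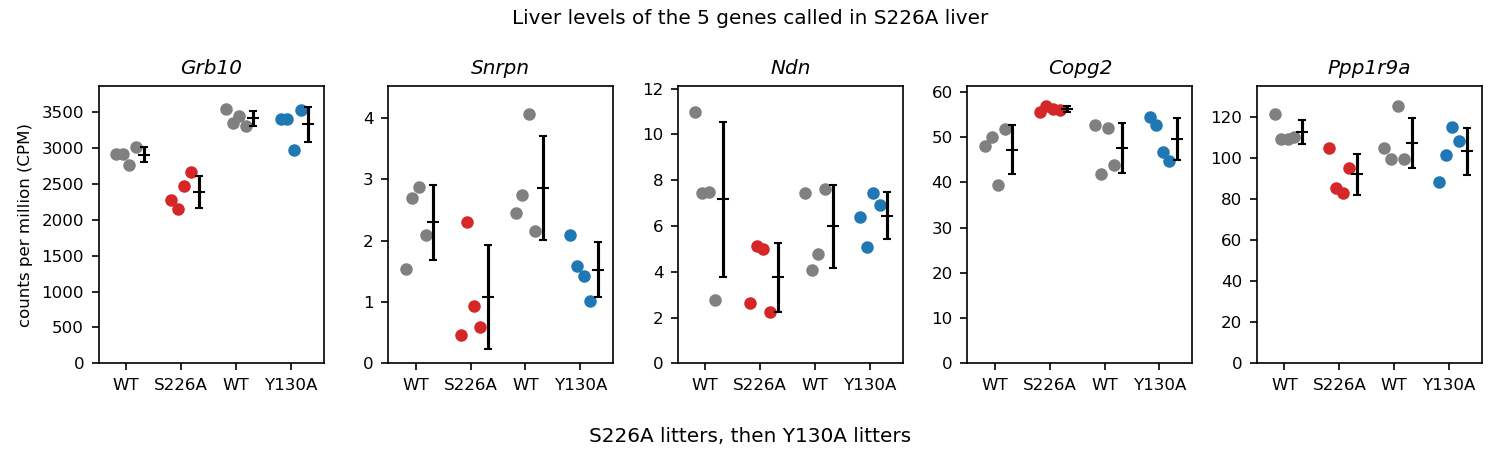
CPM in each liver for the 5 imprinted genes called in S226A liver, with the wild types and mutants of the S226A litters at the left of each panel and those of the Y130A litters at the right; bars are mean ± SD. In S226A litters the groups do not overlap for Grb10, Copg2 and Ppp1r9a and do overlap for Snrpn and Ndn.

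Each of the 5 calls was lost on leaving out at least 1 library. Without S226A liver replicate 1 only Ppp1r9a of the 5 stayed called, without S226A replicate 3 only Grb10 and Ndn did, and without S226A replicate 4 only Grb10 and Ppp1r9a did. Leaving out wild-type replicate 1, 2, 3 or 4 of the S226A litters kept 3, 4, 3 and 4 of the 5 calls, and leaving out S226A replicate 2 kept 3. Fitted with the 8 livers of the S226A litters alone, none of the 5 was called, with edgeR adjusted p between 0.074 and 0.29. The log2 fold changes in that fit were -0.26 for Grb10, -1.06 for Snrpn, -0.92 for Ndn, 0.27 for Copg2 and -0.27 for Ppp1r9a. Cdkn1c also turned on a library: it was at 108, 301, 121 and 195 CPM in wild types and at 151, 256, 271 and 275 CPM in S226A livers. Without wild-type replicate 2, which held squamous transcripts, its log2 fold change moved from 0.39 to 0.75 and passed the test (edgeR adjusted p = 0.022). Peg12, called at -1.44 without S226A replicate 2, was at -0.76 with all 8 (edgeR adjusted p = 0.20).

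S226A liver also differed in its cell type markers. Summed macrophage markers were at 215 to 292 CPM in mutants against 600.09 to 659 in wild types, with 7 of 8 lower, and neutrophil markers at 7036 to 7599 against 2411 to 2844 CPM, with 8 of 8 higher. Endothelial markers were at 315 to 371 against 391 to 435 CPM, with 2 of 8 lower, and the progenitor and glia list, which holds Vim, at 298 to 337 against 197 to 230.22 CPM, with 2 of 8 higher and 1 lower. Squamous markers had 6 of 8 lower and ranged from 0.921 to 829.85 CPM in the wild types. Of the hepatocyte, lung epithelial, erythroid, mesenchymal, skeletal muscle, trophoblast and proliferation lists no marker was called. Neuronal markers summed to 1.26 to 4.82 CPM in wild types and 1.59 to 2.70 CPM in S226A livers, and none of the 8 was called. The part of these markers in the values of the imprinted genes was not tested.

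The promoter windows of Grb10, Snrpn and Copg2, the called genes with a ZFP57 hexamer, are given with that of Mest, the neighbour of Copg2 on the other strand, to show the sequence around the starts. Where RefSeq gave a gene several windows, that with the highest ratio of observed to expected CpG was taken. TGCCGC or its reverse complement GCGGCA, the core of the ZFP57 motif, is in capitals. Of 31 members with a window, 11 (35.5%) held the hexamer in at least 1 window, against 13.1% of 27025 genes in the table, and by window it was 24% of 50 against 11.6% of 32851. The members' windows were also richer in CpG, with a median observed to expected ratio of 0.61 and 61.2% GC against 0.38 and 52.7% over all windows, and a match of 6 letters is a description and not a binding site. Grb10 lies at chr11:12037371-12037670 on the minus strand, Snrpn at chr7:60005150-60005449 on the minus strand, Copg2 at chr6:30896745-30897044 on the minus strand and Mest at chr6:30737803-30738102 on the plus strand. Ndn and Ppp1r9a held no hexamer in any window. No window was given for Cdkn1c, Peg10, Rtl1, Kcnq1, Sgce, Impact and Dcn.
Grb10: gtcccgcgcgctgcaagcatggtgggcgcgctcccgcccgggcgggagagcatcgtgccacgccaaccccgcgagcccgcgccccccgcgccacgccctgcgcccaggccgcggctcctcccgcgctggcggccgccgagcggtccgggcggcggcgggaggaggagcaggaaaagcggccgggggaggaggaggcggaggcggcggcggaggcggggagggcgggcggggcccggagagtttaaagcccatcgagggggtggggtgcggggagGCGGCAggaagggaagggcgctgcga
Snrpn: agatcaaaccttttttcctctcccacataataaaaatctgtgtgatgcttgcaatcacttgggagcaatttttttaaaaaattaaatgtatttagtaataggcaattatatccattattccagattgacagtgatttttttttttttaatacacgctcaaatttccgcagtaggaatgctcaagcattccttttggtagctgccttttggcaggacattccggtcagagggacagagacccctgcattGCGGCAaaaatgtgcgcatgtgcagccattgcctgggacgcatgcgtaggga
Copg2: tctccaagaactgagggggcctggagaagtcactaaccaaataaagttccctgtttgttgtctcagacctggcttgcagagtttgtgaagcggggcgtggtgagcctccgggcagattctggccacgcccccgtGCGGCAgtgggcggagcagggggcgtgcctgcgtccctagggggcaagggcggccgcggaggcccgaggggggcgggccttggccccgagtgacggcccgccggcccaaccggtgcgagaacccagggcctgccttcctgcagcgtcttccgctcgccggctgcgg
Mest: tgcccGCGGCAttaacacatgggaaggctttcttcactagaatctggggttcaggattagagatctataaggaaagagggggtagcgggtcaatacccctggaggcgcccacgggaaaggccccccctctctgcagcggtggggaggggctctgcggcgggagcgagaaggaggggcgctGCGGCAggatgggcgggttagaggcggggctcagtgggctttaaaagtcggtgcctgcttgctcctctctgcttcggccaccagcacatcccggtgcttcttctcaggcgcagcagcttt

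In S226A lung no member was called by edgeR or DESeq2, beside 1.88% of all genes in edgeR and 647 genes in DESeq2. At an unadjusted p below 0.05 stood 7 of 38 members, beside 16.2% of all genes. They were Dlk1 at -0.42, Zim1 at -0.46, Peg3 at 0.19, Ube3a at 0.16, Usp29 at 0.51, Ddc at 0.23 and Impact at 0.20 on the log2 scale, with edgeR adjusted p between 0.16 and 0.28. Peg3 and Usp29 had no overlap between groups, the 4 S226A lungs lying above the 4 wild types for both. The same held for Igf2r, at 1192 to 1320 CPM in wild types and 1325 to 1420.4 CPM in S226A lungs, with a log2 fold change of 0.11 (edgeR adjusted p = 0.63). Zim1 was at 51.5, 55.9, 62.0 and 45.7 CPM in wild types and at 38.6, 35.1, 54.7 and 28.6 CPM in S226A lungs, and with litter as a block it was called at a log2 fold change of -0.48 (edgeR adjusted p = 0.032). A single library decided 3 further values, since Zim1 was called without S226A lung replicate 3 (-0.66), Dlk1 without wild-type replicate 2 (-0.55) and Ube3a without wild-type replicate 1 (0.25). Beside these, summed proliferation markers were at 965 to 1480 CPM in S226A lungs and 603 to 1069 CPM in wild types, and neutrophil markers at 143 to 214 against 37.8 to 89.5 CPM. Their part in the members' values was not tested.

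In S226A brain no member was called, beside 0.243% of all genes, none had an unadjusted p below 0.05, beside 2.27%, and DESeq2 called none of them and 66 genes in all. In Y130A liver no member was called by edgeR, beside 0.272% of all genes. At an unadjusted p below 0.05 stood 6 of 38, beside 9.22% of all genes, and DESeq2, which called 299 genes in all, called Snrpn and Ddc. The others of the 6 were Igf2r at -0.22, Dlk1 at -0.33, Zim1 at -0.37 and Usp29 at -0.39 on the log2 scale, all with overlapping ranges. Ddc was at 52.6, 51.4, 54.7 and 47.7 CPM in Y130A livers and at 47.2, 38.9, 36.5 and 41.6 CPM in wild types. The groups did not overlap, with a log2 fold change of 0.33 ± 0.09 and an adjusted p of 0.11 in edgeR and 0.016 in DESeq2. When the first wild-type liver of that line was omitted edgeR called it too, at 0.40 (adjusted p = 0.046). In Y130A lung and Y130A brain no member was called by edgeR or DESeq2, beside 0.0178% and 0.00592% of all genes, and 0 and 1 members had an unadjusted p below 0.05, beside 2.92% and 2.22% of all genes. That member was Sgce, at 0.15 on the log2 scale in Y130A brain, and in Y130A lung Copg2 was at -0.17, both without overlap. The Copg2 value includes Y130A replicate 3 at 58.9 CPM, where the other Y130A lungs ran from 73.3 to 76.0 CPM. With so few genes called anywhere in these comparisons, a count of 0 of 38 is near the background.

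The difference between the S226A and Y130A effects was tested as an interaction. No member passed in liver, lung or brain, beside 5.9%, 0.308% and 0.0829% of all genes, and 6, 1 and 0 members had an unadjusted p below 0.05, beside 18.4%, 9.8% and 2.29%. The lowest adjusted p was in liver, for Dlk1. Its log2 fold change was 0.32 in S226A liver and -0.33 in Y130A liver, a difference of 0.65 ± 0.23 (edgeR adjusted p = 0.084). Dlk1 was at 145, 232, 160 and 175 CPM in wild types and 160, 255, 223 and 252 CPM in S226A livers. In the Y130A litters it was at 215, 257, 189 and 331 CPM in wild types and 225, 189, 150 and 223 CPM in mutants. The ranges overlapped in both lines. For Ndn the difference was -0.99 ± 0.35 (edgeR adjusted p = 0.093) and for Peg12 -1.32 ± 0.50 (edgeR adjusted p = 0.12). With litter as a block Dlk1 and Ndn passed, at 0.64 and -1.01 with edgeR adjusted p of 0.035 and 0.036, and DESeq2 called Ndn and Peg12 among 1469 genes in liver, and none of the members in lung or brain among 188 and 26 genes. Left without the 2 livers that held squamous transcripts, Dlk1 passed at 0.88 (edgeR adjusted p = 0.022). Single livers also decided these calls. Dlk1 passed without wild-type replicate 2 (0.81) or S226A replicate 1 (0.78) of the S226A litters, or wild-type replicate 3 of the other line (0.76). Ndn passed without wild-type replicate 4 (-1.27) or S226A replicate 2 (-1.20), and Peg12 without the latter (-1.99). In lung the 1 member at an unadjusted p below 0.05 was Copg2, at 0.25, and Calcr, at 1.00 with all libraries, passed at 3.48 with the second wild-type lung of the S226A line left out. That lung held 29 Calcr reads, and the other 3 wild types of its line held 0, 4 and 0.

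Wild types alone also differed between the 2 sets of litters, a comparison added after the data were seen, in which the litters and their sequencing depth cannot be told apart. In liver 5 of 38 members were called beside 13.1% of all genes, in lung 8 of 38 beside 20.1%, and in brain none by edgeR beside 5.98%, with 5 members at an unadjusted p below 0.05, beside 18.4% of all genes, and 3 called by DESeq2 among 1306 genes. Cdkn1c in wild-type liver was at 108, 301, 121 and 195 CPM in the S226A litters and at 490.02, 451, 228 and 535 CPM in the Y130A litters. Igf2, in the same domain on chromosome 7, went the other way, at 83.1, 52.0, 91.1 and 81.0 CPM against 29.4, 32.6, 53.5 and 23.4 CPM. Both ranges overlapped, by 1 library of each set, with log2 differences of -1.23 ± 0.23 and 1.15 ± 0.26 and edgeR adjusted p of 0.00064 and 0.0034. Igf2r was lower in the S226A litters with no overlap, by 0.45 on the log2 scale, and Dlk1 and Ube3a had log2 differences of -0.48 and -0.21, of which only Ube3a did not overlap. Grb10 did not overlap either, at 2764 to 3012 CPM in the S226A litters and 3298 to 3534 CPM in the Y130A litters, a log2 difference of -0.23 that missed the threshold (edgeR adjusted p = 0.065), beside -0.28 for the S226A mutants against their littermates. In brain 10 members did not overlap between the sets, and the share of all genes without overlap was not counted. Among the 10, Cdkn1c, Nnat and Ube3a were lower in the S226A litters, at -0.56, -0.40 and -0.20 on the log2 scale. Igf2r, also among them, was higher there, at 159 to 170 CPM against 124 to 152 CPM. In lung, Plagl1, Zim1, Zdbf2, Peg10 and Slc22a3 were higher in the S226A litters with no overlap, by 0.89, 0.87, 0.86, 1.08 and 1.24 on the log2 scale. Dlk1 was higher there by 0.50, and Grb10 and Ddc were lower, with log2 differences of -0.31 and -0.35, all 3 with overlapping ranges, and Kcnq1 and Ppp1r9a were apart without a call, at 0.34 and 0.22. Plagl1 was at 152, 145, 191 and 227 CPM against 113, 88.2 and 88.0 CPM. In liver the Ube3a call was lost on leaving out any 1 of the 8 wild types, and the Dlk1 call without replicate 1, 3 or 4 of the S226A litters or replicate 2 or 4 of the other set. With calls gained for Dio3, Sgce, Zdbf2 or Rasgrf1 in 3 of these fits, the counts ran from 3 to 5. With DESeq2's size factors in edgeR, with no filter on low counts and in DESeq2 the Dlk1 and Ube3a calls were lost too, DESeq2 gained Rasgrf1 in liver, and Peg3 was called in brain with those size factors. In lung the count ran from 4, without replicate 1 of the Y130A set, to 10, without replicate 2 of the S226A set. With the Y130A set thinned in depth the counts were 3 in liver, 9 in lung and 0 in brain, among 1740, 3356 and 799 genes called. Fitted with only the libraries compared, the counts were 2 in liver, 1 in lung and 11 in brain, among 510, 269 and 3771 genes called.

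**Figure D4:**
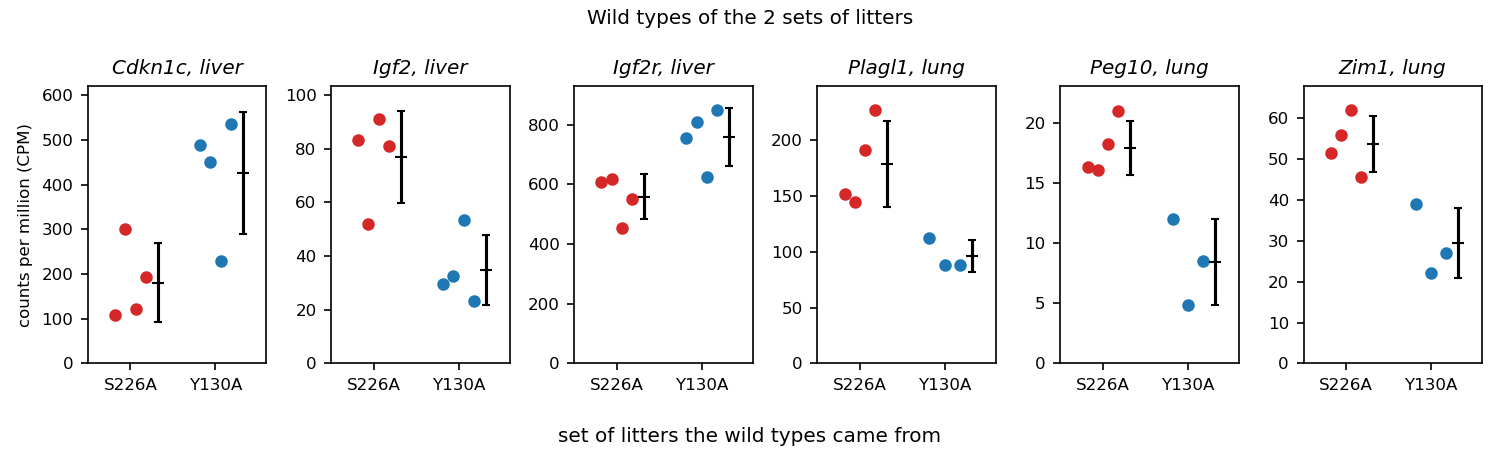
CPM of 6 imprinted genes in wild-type livers and lungs by the set of litters; points are libraries and bars are mean ± SD (n = 4, or 3 for lungs of the Y130A litters). Cdkn1c and Igf2 differ in opposite directions in liver, and the lung groups of Plagl1, Peg10 and Zim1 do not overlap.

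Within groups, the imprinted genes varied among embryos about as much as other genes. Over the members at 5 CPM or more, the median SD of log2 values within groups was 0.19 in liver, 0.15 in lung and 0.11 in brain, beside 0.17, 0.17 and 0.09 over all genes at that level. The widest were Cdkn1c and Ndn in liver at 0.56 and 0.53, Dcn in lung at 0.70 and Plagl1 in brain at 0.28. The narrowest were Gnas in liver at 0.07, Peg3 in lung at 0.07 and Ppp1r9a in brain at 0.05.

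A single Y130A embryo, replicate 3 in each tissue, held the highest Mest value of all libraries in all 3 tissues. It was at 308 CPM in liver, 1011 in lung and 149.74 in brain, where the other libraries of the tissue reached at most 224, 744 and 139.72 CPM. Against the mean of the other 3 Y130A embryos it was 1.55, 1.64 and 1.26 times as high. Copg2, which faces Mest and overlaps its end on the opposite strand, was in the same embryo the lowest of all lungs and of all brains, at 58.9 and 58.7 CPM where the other libraries began at 73.3 and 69.5 CPM. In its liver Copg2 was at 46.7 CPM, inside the range of the others from 39.3 to 56.9. Mest and Copg2 have 76.9% and 82.2% of their exon bases free of other genes. The embryo was singled out after its values were seen. Among 21 members at 5 CPM or more in every tissue, 2 had an embryo that was highest, or lowest, in all 3 tissues, beside 218 of 9296 genes at that level. The other was Zdbf2, lowest in a wild-type embryo of the Y130A litters.

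**Figure D5:**
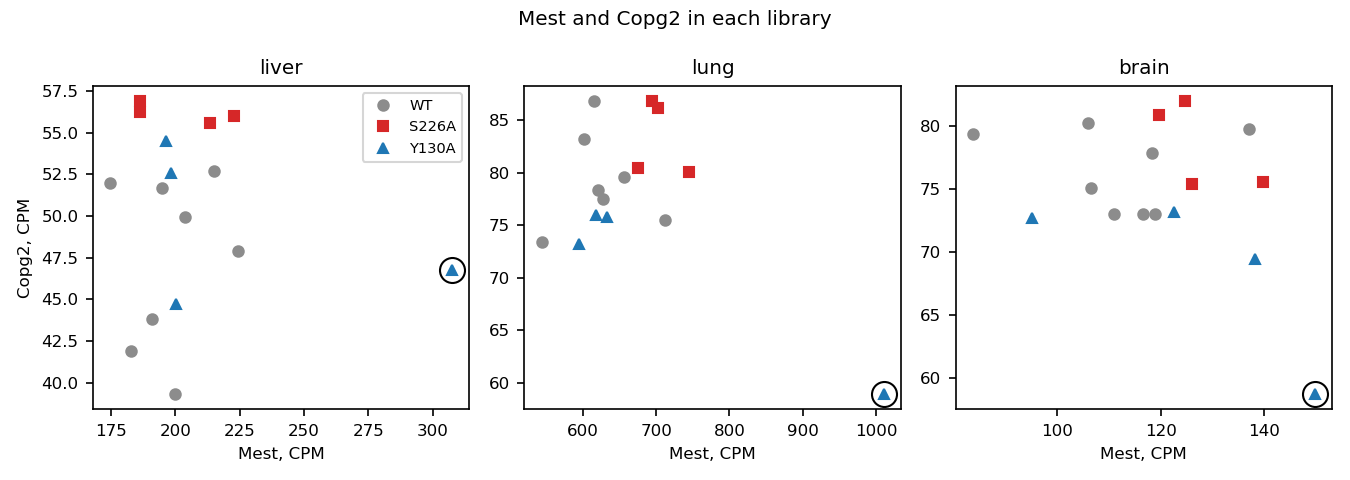
Mest against Copg2 in CPM, a point per library, in liver, lung and brain; the ring marks the Y130A embryo that is replicate 3 in each tissue. It has the highest Mest value in all 3 panels and the lowest Copg2 value in lung and brain.

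Further imprinted genes were read from a list of 39, of which 36 were tested. In S226A liver 2 rose and 4 fell, beside the 11.7% of all genes called there. The phospholipid transporter gene Atp10a rose by 0.86 ± 0.17 and the TRAIL decoy receptor gene Tnfrsf23 by 1.63 ± 0.50 on the log2 scale. The receptor tyrosine kinase gene Axl, a macrophage receptor for dying cells, fell by 1.27 ± 0.08, Begain by 1.79 ± 0.35, the paraoxonase gene Pon2 by 0.34 ± 0.10 and Blcap by 0.32 ± 0.10. Their edgeR adjusted p ran from 2.3e-15 for Axl to 0.035 for Blcap. In S226A lung, where 1.88% of all genes were called, Axl fell by 0.63 ± 0.08 and the creatine synthesis gene Gatm by 0.91 ± 0.21 (edgeR adjusted p = 1.6e-06 and 0.016), and none was called in the other 4 comparisons. The macrophage markers described above were lower in the same livers, and their part in the Axl value was not tested. The median log2 fold change of the list was -0.02 in S226A liver and 0.03 in S226A lung.

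Of 27 genes that keep or read imprints and H3.3, 26 were tested. In S226A lung 1 was called, beside 1.88% of all genes, in S226A liver none, beside 11.7%, and none in the other 4 comparisons. Dnmt1, the maintenance DNA methyltransferase, rose in S226A lung from 127 ± 16.5 to 154 ± 23.9 CPM (SD, n = 4), by 0.28 ± 0.08 on the log2 scale (edgeR adjusted p = 0.045). The median log2 fold change of the proliferation markers there was 0.43, with none of the 8 called, and their part in the Dnmt1 value was not tested. Zfp57 was at 4.80 ± 0.514 CPM in S226A livers and 5.00 ± 1.35 in wild types, and at 188 ± 15.01 and 193 ± 7.51 CPM in S226A brains and wild types. Its log2 fold changes lay between -0.05 and 0.12 in the 6 comparisons, and those of Trim28 between -0.05 and 0.07. Atrx lay between -0.11 and 0.17 and Daxx itself between -0.12 and 0.04, none of them called. These are RNA values. For Daxx protein the authors reported more in Y130A and less in S226A, in embryonic fibroblasts, where it was clearest, and in E18.5 lung. Both alleles are point substitutions, so the level of Daxx RNA does not check the genotype labels.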

How the data were processed

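RNA was made from flash-frozen tissue with TRIzol and a column kit. The deposited values are counts of reads per gene, which the authors made by aligning to GRCm38 with STAR 2.6.0b under GENCODE annotation and summing by gene; the processing notes also name FastQC 0.11.5, Trim Galore 0.6.5 and DESeq2. All 47 columns of the table matched a sample. Counts were fitted in edgeR 4.0.16 (R 4.3.3) with 1 mean per group over all 47 libraries, TMM scaling, filterByExpr (minimum count 10, minimum total 15), quasi-likelihood tests with 35 residual degrees of freedom and Benjamini-Hochberg adjustment over 16892 genes; the SE was taken as the absolute log2 fold change over √F. CPM use TMM library sizes. The fit was tested on simulated counts. Alternatives were DESeq2 1.42.0, its size factors, no filter, smaller fits, a litter block and leaving out each library.

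Full statistics are given for members with an adjusted p below 0.05 in a mutant comparison or difference and for the 5 highest per length in each wild-type tissue; other listed genes are named where called, with Zfp57, Trim28, Dnmt1, Daxx and Atrx in every case. The members and lists were chosen with earlier results of these data known. Titles tie libraries to litters: of 23 mutant and wild-type pairs of a litter and tissue, residuals correlated above 0.1 in 12 (range -0.07 to 0.34). Embryos are separate animals. Promoters are from RefSeq (GRCm38.p6), and lengths and overlaps from GENCODE.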

Additional observations from a re-analysis of the deposited data

Results flagged for a closer look

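Among 11 members with full statistics, 121 groups of 4 libraries were examined for a value far from the other 3 (Dixon's ratio at its 95% level), and 8 were found, where chance gives about 1 in 20 groups. Mest in Y130A replicate 3 was at 307.61 CPM in liver, where the others ran from 196 to 200.3, and at 1010.6 CPM in lung, where they ran from 594 to 633. Copg2 in Y130A lung replicate 3, the same embryo, was at 58.9 CPM against 73.3 to 76.0. Ndn in wild-type brain replicate 4 of the S226A litters was at 298.56 CPM against 448 to 464. Cdkn1c in S226A liver replicate 1 was at 150.67 CPM against 256 to 275. Ppp1r9a in wild-type liver replicate 1 of the S226A litters was at 121.17 CPM against 109 to 110.02. Igf2r was at 1420.4 CPM in S226A lung replicate 4 against 1325 to 1338, and at 123.63 CPM in wild-type brain replicate 3 of the Y130A litters against 149 to 152.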

How the results depend on the processing

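Counts of members called were within 1.5 times the value given under every alternative for S226A brain, Y130A lung, Y130A brain, the 3 tissue comparisons and the brain difference. The others moved. Fitting only the libraries compared, or an adjusted p below 0.01, took S226A liver from 5 to 0. DESeq2 took Y130A liver from 0 to 2 and the liver difference from 0 to 2. With litter as a replicate block, S226A lung went from 0 to 1 and the liver difference from 0 to 2, S226A liver stayed at 5, and no other count was changed past 1.5 times. In 2 alternatives added after seeing the data, omitting the livers with squamous transcripts gave 1 in Y130A liver and 1 in the liver difference, and thinning the Y130A reads changed no mutant count. Fits that each dropped 1 library gave 1 to 5 members in S226A liver, 0 to 1 in S226A lung, 0 to 1 in Y130A liver, 0 to 2 for the liver difference and 0 to 1 for the lung difference; no log2 fold change of the 5 called genes reversed. The causes were not tested. Members under 5 CPM, such as Snrpn in liver, rest on few reads, and with 3 or 4 embryos a group small differences could be missed.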
